A study of Rattus norvegicus with 24 samples.

Results

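Dusp1, Dusp4, Dusp5, Dusp6, Spry2, Spry4, Spred1, Etv5, Ier2 and Ier5 are genes that growth factor and kinase signalling switches on quickly, and most of them then damp that signalling. All 10 were found by name among the 32883 reference genes listed in every table, and all 10 were among the 15644 genes with enough coverage to be tested. They were measured by RNA-Seq in the frontal cortex of 24 male Sprague-Dawley rats, all adult, sampled 24 h after an inhalation exposure to tungsten particles. The labels give 0 mg/m3 of tungsten for the 8 Control rats, 5 mg/m3 for the 8 Low rats and 80 mg/m3 for the 8 High rats, and no other agent or allele is given for any group. The labels speak of cell lines of the frontal cortex at the extraction step and of frontal cortex as the tissue, whereas the methods describe tissue taken from the animals. The 10 genes were chosen by their measured differences between these groups, so those differences are given below as a description, and nothing is read from how many of them passed a test.

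The mitogen-activated protein kinase (MAPK) cascade carries signals from receptors at the cell surface through Ras and Raf to the kinase ERK, which enters the nucleus and changes transcription. Active ERK also induces its own brakes. Among these are the dual-specificity phosphatases (Dusp), which remove the activating phosphates from MAPKs, and the Sprouty and Spred proteins, which act further up, between receptor and Raf. In neurons the same cascade is driven by synaptic activity and calcium, and immediate early genes such as Fos, Egr1 and the Ier genes are transcribed within minutes of a stimulus without new protein synthesis.

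RefSeq promoter windows of assembly GRCr8 were matched by symbol for 9 of the 10 genes, all except Dusp4, and Spry2 has 2 windows. The 250 bases before the start of each were searched on both strands for the cyclic AMP response element (CRE, TGACGTCA), the AP-1 site (TGACTCA or TGAGTCA), the serum response factor motif known as the CArG box, and the TATA box (TATAAA), motifs that share no full match with each other. The CRE was found in Dusp1, from 124 to 117 bases before the start, and in Ier2, from 66 to 59 bases before it. Of all 33469 promoter windows, 1.59% hold this motif. Dusp5 has a pair of adjacent CArG boxes, from 82 to 73 and from 72 to 63 bases before its start, a motif found in 1.5% of all windows. Ier5 has a TATAAA from 45 to 40 bases before its start, which 12.9% of all windows share. No window of the 9 genes holds the AP-1 letters, which 4.05% of all windows hold. The 3 upstream stretches with a CRE or CArG box are shown because these motifs are known from promoters of immediate early genes. They lie on the plus strand at chr10:17184603-17184852, chr19:40399123-40399372 and chr1:262543524-262543773, are written 5′ to 3′ up to the base before the start, and have the CRE (Dusp1, Ier2) or the CArG boxes (Dusp5) in capitals.
Dusp1: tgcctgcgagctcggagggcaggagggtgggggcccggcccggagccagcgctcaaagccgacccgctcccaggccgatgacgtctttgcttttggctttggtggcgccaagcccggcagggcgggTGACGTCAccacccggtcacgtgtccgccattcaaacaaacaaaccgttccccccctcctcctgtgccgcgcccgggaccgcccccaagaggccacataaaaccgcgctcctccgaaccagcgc
Ier2: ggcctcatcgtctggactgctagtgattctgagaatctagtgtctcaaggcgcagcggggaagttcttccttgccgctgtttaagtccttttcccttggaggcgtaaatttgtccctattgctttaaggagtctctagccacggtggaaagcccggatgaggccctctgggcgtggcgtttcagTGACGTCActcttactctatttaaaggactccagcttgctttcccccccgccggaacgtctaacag
Dusp5: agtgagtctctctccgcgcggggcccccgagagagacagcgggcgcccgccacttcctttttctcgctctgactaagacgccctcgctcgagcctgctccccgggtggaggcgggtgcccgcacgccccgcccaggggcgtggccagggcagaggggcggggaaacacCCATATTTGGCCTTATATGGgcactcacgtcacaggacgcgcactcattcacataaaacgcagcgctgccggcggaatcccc

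Values are scaled coverage, the mean read depth per base of a gene divided by the sum over all reference genes of the library and multiplied by 1000000. This is a level per length, so genes can be compared with each other. Differences between groups are on the log2(scaled coverage + 1) scale with the standard error (SE) from 1 limma fit over all 24 rats, 8 in each group. This scale understates the change of low genes. Nothing in the sources says how the rats were caged or handled in batches. The p-values set a group difference against the spread between rats within groups. They do not cover differences in handling or processing that went with group. The tables hold no read counts, so counting error is unknown. In bulk tissue, fewer cells of a type and less RNA per cell cannot be told apart.

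Several sets of libraries stood apart from the others, and the results that rest on them are given with and without them. Sequenced bases, taken from the ratio of deposited coverage to FPKM, were fewer in Low, with a median of 3.63 gigabases (3.34 to 6.42), than in Control (5.54, from 5.05 to 7.86) and High (6.52, from 4.95 to 7.65). Depth therefore went with Low, the group in which the means of all 10 genes were highest, and its part in the differences was not tested. The Low tables list 0 assembled loci, against 46334 to 159573 in Control and 50235 to 64010 in High, so how the tables were made differed between groups and cannot be told apart from Low exposure. Libraries 56 to 62, which are 1 Control and 6 Low rats, had a summed scaled coverage of 5449 to 8102 on 8 minus-strand mitochondrial tRNA genes, against 84.9 to 155 in the other 17 rats. High rats 65 to 67 had the 3 highest sums of striatal markers in their group and the 3 lowest of excitatory neuron markers, at 1339, 1076 and 750. Control 49 and Low 57 had the lowest excitatory neuron marker sums of their groups, at 1007 and 1204.

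In level, Ier5, Dusp1, Spred1, Spry2 and Etv5 were the more abundant of the 10 genes. Their means over 24 rats were 67.2 ± 22.9 (SD) for Ier5, 62.2 ± 28.4 for Dusp1, 56.1 ± 15.6 for Spred1, 54.0 ± 6.30 for Spry2 and 47.8 ± 11.7 for Etv5, so neighbours in this order differed by less than the spread between rats. Dusp6 followed at 29.0 ± 9.58 and Ier2 at 20.5 ± 7.69. Dusp4, Spry4 and Dusp5 were low, at 10.999 ± 2.60, 5.36 ± 1.41 and 4.01 ± 1.39. Ier5 lay at the 85.8th percentile of the mean levels of all genes tested and Dusp5 at the 20.4th. Between the lowest and the highest rat the level varied 7.39-fold for Dusp1, the widest of the 10, and 1.54-fold for Spry2, the narrowest.

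Dusp1 encodes a nuclear phosphatase that inactivates ERK and the stress-activated MAPKs. Its scaled coverage ran from 29.9 to 91.0 in Control rats (median 58.4), from 47.2 to 111 in Low rats (median 90.3) and from 15.1 to 89.4 in High rats (median 31.1). The 3 ranges overlapped, with 4 of 8 Low rats above every Control rat and 4 of 8 High rats below every Control rat. The High group was split: rats 65 to 69 had 33.1, 29.1, 15.1, 20.9 and 26.6, whereas rats 70 to 72 had 54.2, 84.1 and 89.4. The log2 difference was 0.54 (SE 0.31) for Low against Control, -0.58 (SE 0.31) for High against Control and 1.11 (SE 0.31) for Low against High.

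Dusp6 encodes a cytoplasmic phosphatase selective for ERK. It was measured at 18.4 to 38.0 among Control rats (median 27.6), 24.6 to 48.4 among Low rats (median 38.1) and 12.6 to 36.2 among High rats (median 22.04). All 8 Low rats were above the High median, and 6 of 8 High rats were below every Low rat. Its log2 difference was 0.40 (SE 0.19) for Low against Control, -0.34 (SE 0.19) for High against Control and 0.74 (SE 0.19) for Low against High. Dusp5, a nuclear phosphatase selective for ERK, was measured at 1.57 to 5.29 among Control rats (median 3.58), 2.996 to 6.38 among Low rats (median 5.22) and 1.76 to 5.94 among High rats (median 3.04). High 72 stood highest in its group for both phosphatases, and High 67 lowest. The differences of Dusp5 were 0.36 (SE 0.19), -0.10 (SE 0.19) and 0.45 (SE 0.19) in the same order of comparisons.

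Dusp4, another nuclear MAPK phosphatase, was low in other High rats than Dusp1 was, whereas Low 57 and 60 were lowest for both. It ran from 5.31 to 12.97 among Control rats (median 11.7), from 7.48 to 15.0 among Low rats (median 13.4) and from 6.52 to 11.6 among High rats (median 9.74). In both Control and Low a single rat was far below the rest, Control 49 at 5.31 and Low 57 at 7.48, while 7 of 8 Low rats were above every High rat. Its lowest High rats were 70 and 71, which with 72 were the highest High rats for Dusp1. The log2 differences were 0.23 (SE 0.15) for Low against Control, -0.18 (SE 0.15) for High against Control and 0.41 (SE 0.15) for Low against High. Without Control 49 the first became 0.11 and the second -0.30.

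Spry4 and Spry2 encode Sprouty proteins, which hold back signalling from receptor tyrosine kinases to Ras and Raf. Spry4 was measured at 3.10 to 6.98 among Control rats (median 4.898), 4.12 to 7.96 among Low rats (median 6.47) and 3.34 to 5.99 among High rats (median 4.46). Of the Low rats, 4 of 8 exceeded every Control rat and every High rat, and the lowest Low rat was again 57. The log2 differences of Spry4 were 0.31 (SE 0.13), -0.14 (SE 0.13) and 0.44 (SE 0.13) for Low against Control, High against Control and Low against High. Spry2 had the smallest differences of the 10 in Low against Control and Low against High and the narrowest spread. It lay at 46.5 to 60.5 among Control rats, 46.2 to 67.5 among Low rats and 43.7 to 57.5 among High rats, with differences of 0.08, -0.12 and 0.20 (SE 0.08 each).

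Spred1 encodes a protein that brings the Ras inactivator neurofibromin to the membrane. Its range was 21.3 to 68.8 among Control rats (median 58.3), 31.5 to 82.4 among Low rats (median 69.4) and 37.2 to 73.6 among High rats (median 44.2). Control 49 was far below the other Control rats, which began at 52.8, and Low 57 was the lowest Low rat. The differences were 0.24 (SE 0.21) for Low against Control, -0.16 (SE 0.21) for High against Control and 0.41 (SE 0.21) for Low against High. Without Control 49 the first became 0.06 and the second -0.34. In Control 49 the deposited FPKM of Spred1 was 1.59 times the value that its coverage gives for other genes of that library, and it was over 5% above it in 4 of the 24 rats. For the other 9 genes it was at most 1.03 times that value.

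Etv5 is an ETS transcription factor that fibroblast growth factor and ERK signalling induces. It was measured at 33.0 to 55.7 among Control rats (median 46.6), 41.0 to 67.0 among Low rats (median 53.3) and 25.3 to 67.8 among High rats (median 44.8). The highest rat of all, High 68 at 67.8, and the 3 lowest, High 65 to 67 at 32.4, 28.3 and 25.3, were in 1 group, which therefore spanned both other groups. The log2 differences were 0.29 (SE 0.16), -0.12 (SE 0.16) and 0.40 (SE 0.16).

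Ier2 and Ier5 encode small nuclear immediate early proteins, and Ier5 is known to act with heat shock factor. Ier2 ran from 13.1 to 29.3 among Control rats (median 18.8), from 14.4 to 34.6 among Low rats (median 23.6) and from 8.07 to 29.8 among High rats (median 12.8). As for Dusp1, High 65 to 69 were low, at 14.6, 10.9, 9.06, 8.07 and 10.3, and High 70 to 72 were higher, at 24.3, 29.8 and 19.1. Its differences were 0.30 (SE 0.23), -0.44 (SE 0.23) and 0.74 (SE 0.23) for Low against Control, High against Control and Low against High. Ier5 ran from 45.8 to 86.2 among Control rats (median 54.4), from 51.7 to 119 among Low rats (median 85.9) and from 24.3 to 83.7 among High rats (median 55.8). Here Low stood above both other groups, with 7 of 8 Low rats above the Control median, whereas the Control and High medians lay close together. The differences of Ier5 were 0.51 (SE 0.21), -0.15 (SE 0.21) and 0.66 (SE 0.21).

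**Figure D1:**
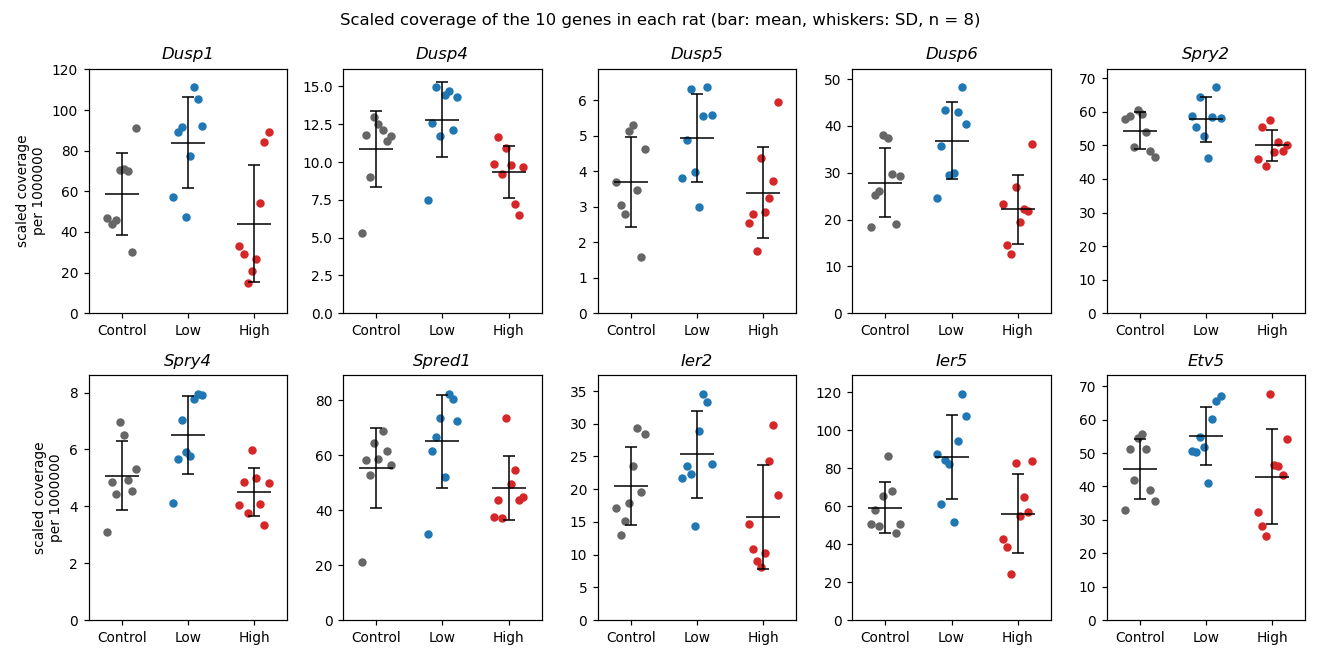
Scaled coverage (linear axes from 0) of each of the 10 genes in Control, Low and High rats, with 1 point per rat, a bar at the mean and whiskers of 1 SD (n = 8). The mean was highest in Low and lowest in High for all 10 genes, and the ranges of the 3 groups overlapped for every gene.

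For all 10 genes the mean was highest in Low, intermediate in Control and lowest in High, and for every gene the ranges of each pair of groups overlapped. In Low against Control, 0 of the 10 passed an adjusted p of 0.05 in limma, where 6.11% of all genes tested did and 1.23% were past it and higher in Low. All 10 differences were positive, with a median of 0.30 beside 0.06 over all genes tested, and 3 of the 10 had an unadjusted p under 0.05, as did 18.4% of all genes tested, with 0 past the threshold in the exact Wilcoxon test. In High against Control, 0 of the 10 passed, as did 0% of all genes tested, while 2.11% of all genes and 0 of the 10 had an unadjusted p under 0.05. All 10 differences were negative, with a median of -0.15 beside -0.03 over all genes. In Low against High, Dusp1, Dusp6, Spry4, Ier2 and Ier5 passed, all higher in Low, where 11.7% of all genes tested passed and 5.30% were past the threshold and higher in Low. The median of the 10 was 0.45 beside 0.09 over all genes. Since these contrasts chose the genes, and since each pair of comparisons shares a group, the counts are a description only.

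**Figure D2:**
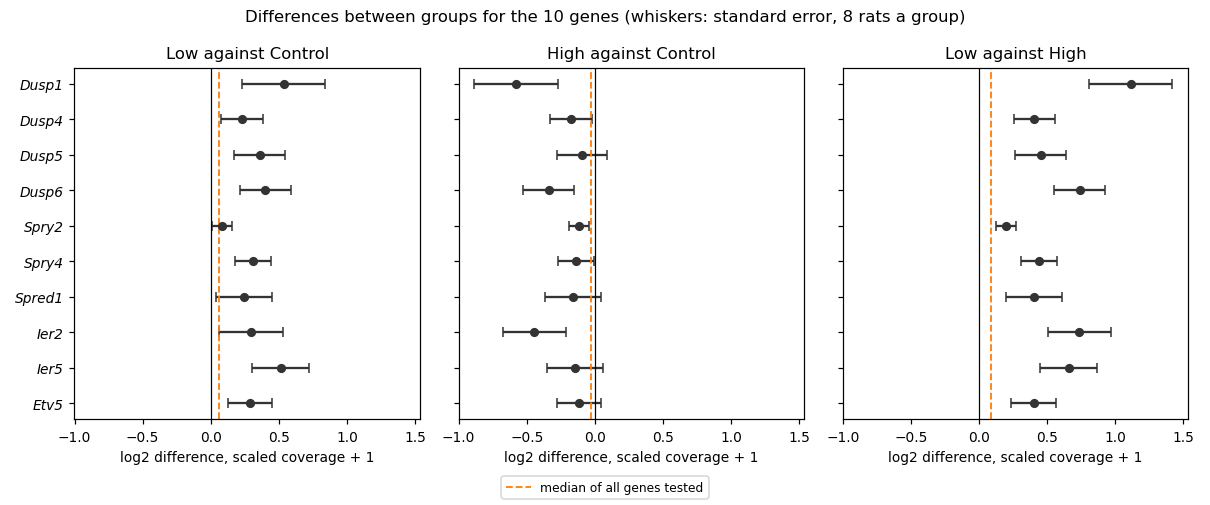
Log2 difference (scaled coverage + 1) of each of the 10 genes in the 3 comparisons, with whiskers of 1 SE from limma (8 rats a group) and a dashed line at the median of all 15644 genes tested. The points lie between 0.08 and 0.54 in Low against Control, between -0.58 and -0.10 in High against Control, and between 0.20 and 1.11 in Low against High.

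The calls in Low against High changed with the libraries used. Without High 65 to 67, 0 of the 10 genes passed, where the share over all genes fell from 11.7% to 5.96%. The difference of Dusp1 went from 1.11 to 0.77, that of Dusp6 from 0.74 to 0.52 and that of Ier2 from 0.74 to 0.55. The difference of Etv5 went from 0.40 to 0.10, that of Ier5 from 0.66 to 0.30 and that of Dusp5 from 0.45 to 0.24, whereas that of Dusp4 was 0.48 and that of Spry4 was 0.41. In High against Control the same step turned the difference of Dusp5 to 0.12, of Ier5 to 0.21 and of Etv5 to 0.19, so that 3 of the 10 were then positive. Without libraries 56 to 62, which leaves Low rats 63 and 64, 0 of the 10 passed in Low against High and 2.26% of all genes did, and the differences were larger, from 0.33 for Spry2 to 1.39 for Dusp1. The SE was larger too, rising from 0.31 to 0.50 for Dusp1 and from 0.19 to 0.30 for Dusp6. With those libraries as a covariate 0 of the 10 and 2.26% of all genes passed, with differences from 0.35 for Spry2 to 1.07 for Dusp1. Leaving out Control 49 and Low 57 raised the count to 7, adding Dusp4 and Spred1, as the share over all genes rose to 28.8%. When 1 of the 16 Low and High rats was left out at a time the count was 2 without Low 59, 62, 63 or 64 or High 65 or 67, and 3 without High 66, 69 or 71. Dusp1 and Dusp6 passed in each of these 16 fits.

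The choice of scaling also bears on these counts, since it moved the split of all calls. In Low against High, 829 of 1828 genes past the threshold were higher in Low, against 370 of 1656 with median-of-ratios scaling and 77 of 1129 without scaling, and the 10 genes then gave 5, 3 and 0 calls. In Low against Control the split was 192 of 956, against 32 of 613 without scaling and 832 of 1667 when mitochondrial genes were kept out of the sum, with 0 of the 10 called each time. Without scaling the difference of Spry2 in Low against High was -0.01, and in High against Control Dusp5, Spry2, Spry4, Spred1, Ier5 and Etv5 were between 0.01 and 0.06 rather than negative.

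The 10 genes varied together from rat to rat beyond the group means. After subtraction of each group's mean from log2(scaled coverage + 1), 42 of the 45 pairs had a positive Pearson correlation over the 24 rats, with a median r of 0.42, beside a median of 0.18 over pairs among 1 in 10 of the genes tested. Values from 1 rat share its library, its dissection and its scaling sum, so these correlations are a description. The tightest pair was Ier5 and Etv5 (r = 0.91, Spearman's rho = 0.90, and r = 0.88 without the 2 rats farthest from the median of Ier5), with r of 0.82, 0.93 and 0.95 within Control, Low and High. Dusp5 and Dusp6 followed (r = 0.84, rho = 0.83, and 0.80 without the 2 farthest rats), then Dusp1 and Ier2 (r = 0.83, rho = 0.84, and 0.85). A second set was made of Dusp4 with Spry4 (r = 0.81, rho = 0.72, and 0.64) and Spry4 with Spred1 (r = 0.80, rho = 0.71, and 0.62). Dusp4 with Spred1 had r = 0.73, but rho = 0.43 and r = 0.20 without the 2 farthest rats, so this relation rested on those 2 rats. Dusp4 and Ier2 had the lowest correlation of all pairs, at -0.10 over the 24 rats, with 0.33 in both Control and Low and -0.82 in High. Dusp4 and Dusp1 likewise had 0.34 in Control, 0.61 in Low and -0.57 in High, where rats 70 and 71 were high for Dusp1 and low for Dusp4.

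**Figure D3:**
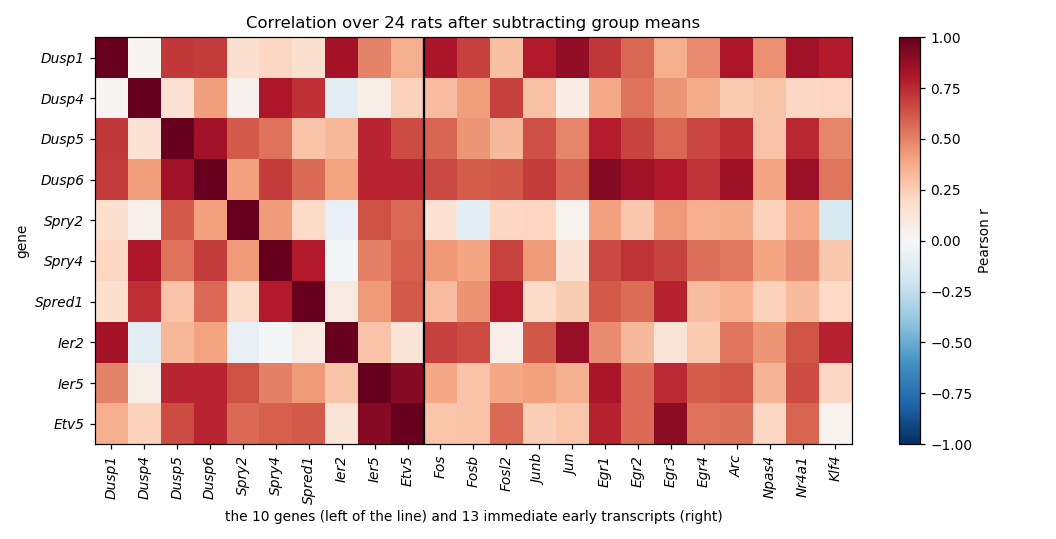
Pearson r over 24 rats (colour, from -1 to 1) between each of the 10 genes (rows) and the 10 genes and 13 immediate early transcripts (columns), after subtraction of group means. Among the immediate early transcripts Dusp1 and Ier2 are most alike to Jun, Dusp6 to Egr1 and Etv5 to Egr3, whereas Spry2 has the palest row.

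Set beside 13 immediate early transcripts measured above the filter, the phosphatases Dusp1 and Dusp6 were the most alike to them, with a median r of 0.71 and 0.70. Dusp5 had a median of 0.58, Etv5 of 0.54 and Ier2 of 0.54, whereas Spry2 had 0.23. The transcript nearest to Dusp1 was Jun, a subunit of AP-1 (r = 0.89), and Jun was also the nearest to Ier2 (r = 0.87). For Dusp6 and Dusp5 it was Egr1, an activity-induced zinc finger factor (r = 0.92 and 0.79), for Etv5 Egr3, a relative of Egr1 (r = 0.90), for Ier5 Egr1 (r = 0.82), and for Spry4 Egr2 (r = 0.72). Dusp4 and Spred1 were closest to Fosl2 (r = 0.68 and 0.79). The genes with a CRE upstream in the windows shown above, Dusp1 and Ier2, were both closest to Jun, and the part of the motif in this was not tested.

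Over all genes tested outside the 10, the 3 with the highest correlation to each were named by rule. For Dusp1 they were Jun (r = 0.89, rho = 0.89, and 0.84 without the 2 farthest rats), Csrnp1 (r = 0.87) and Nr4a1 (r = 0.84). For Dusp6 they were Egr1 (r = 0.92), Dnajb5 (r = 0.91) and Trib1 (r = 0.88), and for Ier2 they were Ccn1 (r = 0.90), Btg2 (r = 0.87) and Jun (r = 0.87). These neighbours of Dusp1, Dusp6 and Ier2 include several that are themselves known as rapidly induced transcripts. Spry4 was nearest to Midn, Nr4a3 and Ptpru (r = 0.88 each), and Dusp5 to Extl1, Wnt10a and Rasl11a (r = 0.82, 0.80 and 0.79). Etv5 was nearest to Nuak1, Garnl3 and Nlk (r = 0.93, 0.91 and 0.91), and Ier5 to Rassf5, Dkk3 and Mybpc1 (r = 0.94, 0.92 and 0.92). Dusp4 was nearest to Tent5a, Nup210 and Ints10 (r = 0.88, 0.86 and 0.86), Spred1 to Chd5, Fbxo41 and Heg1 (r = 0.96 each), and Spry2 to Xbp1, Atg3 and Socs2 (r = 0.77, 0.76 and 0.76).

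Marker levels moved with several of the 10 genes. All 5 excitatory cortical neuron markers (among them Slc17a7, Tbr1, Neurod6 and Camk2a) were above 0 in all 24 rats. Their sum ran from 1007 to 1927 for Control, from 1204 to 1863 for Low and from 750 to 1877 for High. The group medians of this sum were close, at 1627 (Control), 1619 (Low) and 1623 (High). All 10 genes correlated positively with this sum within groups, from r = 0.35 for Dusp4 to r = 0.86 for Etv5 (rho = 0.86, and 0.84 without the 2 farthest rats). The share of all genes tested with a positive correlation is not given here, so nothing particular to the 10 genes is read from these signs. Dusp6 had r = 0.80 (rho = 0.72, and 0.73), Ier5 r = 0.79 (rho = 0.81, and 0.75) and Dusp1 r = 0.55 (rho = 0.51, and 0.42). The 7 striatal markers (among them Drd1, Drd2, Ppp1r1b, Adora2a, Penk and Rgs9) were also above 0 in every rat. Being above 0 therefore does not set the labelled tissue apart. The striatal sum ran from 425 to 966 for Control, from 295 to 708 for Low and from 208 to 1567 for High. Etv5 went against this sum (r = -0.81, rho = -0.73, and -0.77), as did Ier5 (r = -0.77, rho = -0.77, and -0.78), while Dusp4 had r = 0.09. Of these markers 0 of 5 and 0 of 7 passed the threshold in any comparison by limma or the exact Wilcoxon test. At an unadjusted limma p under 0.05, 1 and 2 of the excitatory markers differed in Low against Control and Low against High, and 0 of the striatal markers did in any comparison. The median difference of the excitatory markers was 0.14 in Low against Control (4 of 5 positive). It was -0.20 in High against Control (0 of 5) and 0.35 in Low against High (4 of 5). These median differences had the same order of groups as the 10 genes, but the group medians of the excitatory sum did not. All 7 striatal markers had negative differences in all 3 comparisons. The median difference was -0.57 (Low against Control), -0.33 (High against Control) and -0.22 (Low against High). The striatal sum had group medians of 635 (Control), 475 (Low) and 465 (High). The 3 meningeal markers were also lower in value in Low, with sums from 20.6 to 52.9 (median 31.7) against 33.5 to 72.3 in Control (median 45.4) and 19.3 to 61.1 in High (median 47.9). Their median difference was -0.46 in Low against Control, where 2 of 3 had an unadjusted limma p under 0.05, 0 passed in limma and Lum, chosen here after its value was seen, passed the exact Wilcoxon test (adjusted p = 0.018). The part of these markers in the differences of the 10 genes was not tested. The fits without High 65 to 67 do not test it, since these rats were also the 3 lowest for Etv5 and were chosen after seeing the data.

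**Figure D4:**
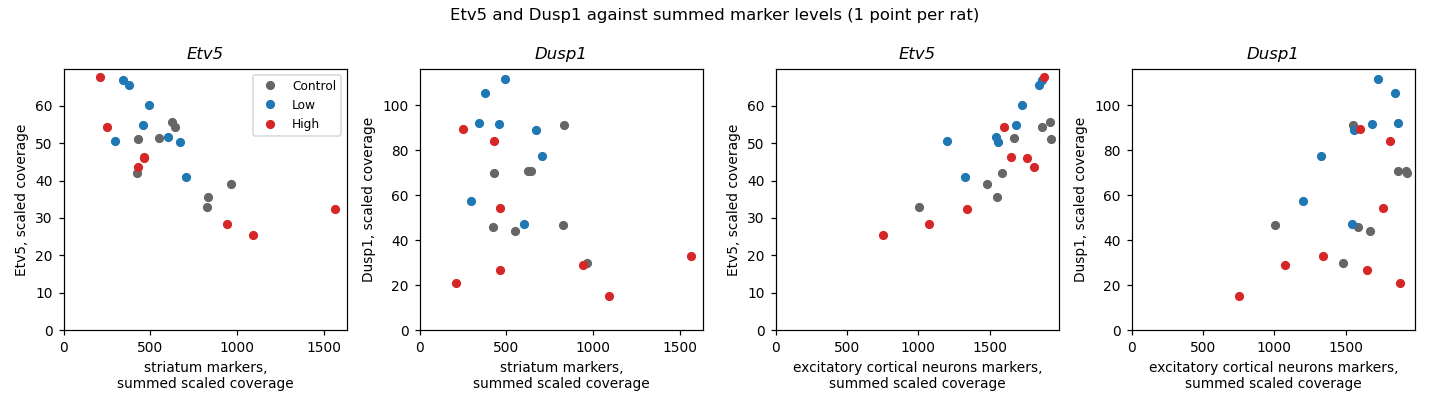
Scaled coverage of Etv5 and Dusp1 against the summed scaled coverage of striatal and of excitatory cortical neuron markers, 1 point per rat, coloured by group, with all axes from 0. High 65 to 67 lie at striatal sums of 945 to 1567 with Etv5 at 25.3 to 32.4.

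Other genes of the pathway, taken from lists written from general knowledge of it, were read from the same fit. Of 78 listed genes 74 were tested (not Dusp9, Egf, Bdnf and Atf3), of which 4 passed in Low against Control, 0 in High against Control and 12 in Low against High, each of the called genes being higher in Low. The shares over all genes tested were 6.11%, 0% and 11.7%. At an unadjusted p under 0.05 the counts were 14, 6 and 26 of 74, beside 18.4%, 2.11% and 29.1% of all genes. In Low against Control the 74 genes were thus called about as often as genes in general when both directions are counted. Of the 74, 5.41% passed and were higher in Low in that comparison, beside 1.23% of all genes tested. In Low against High these shares were 16.2% and 5.30%, and the differences between shares were not tested. The calls were unevenly spread over the lists. The 13 immediate early transcripts tested gave 2 of the 4 calls in Low against Control and 8 of the 12 in Low against High. The median difference of the 74 genes was 0.07, -0.08 and 0.13 in Low against Control, High against Control and Low against High. Over all genes tested it was 0.06, -0.03 and 0.09.

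The other feedback inhibitors had a median difference of 0.07 in Low against Control and 0.12 in Low against High, beside 0.06 and 0.09 over all genes. Of 15 tested, Dusp3, a small atypical phosphatase, rose in Low against Control, from 137 ± 17.5 (SD, n = 8) to 169 ± 24.3, a log2 difference of 0.30 (SE 0.09, limma adjusted p = 0.045), with 7 of 8 Low rats above the Control median. Dusp3 (0.36, SE 0.09, limma adjusted p = 0.0094) and Dusp7, a cytoplasmic ERK phosphatase (0.35, SE 0.08, limma adjusted p = 0.0052), were higher in Low than in High. For Dusp7 all 8 Low rats were above the High median. Nf1, which encodes neurofibromin, the partner of Spred1, had a difference of 0.52 (SE 0.23) in Low against High, and Rasa1, another Ras inactivator, 0.37 (SE 0.12), and neither passed. Dusp2 had -0.32 (SE 0.17) in Low against Control, and Spry1 had -0.23 (SE 0.16) and Spred3 0.12 (SE 0.15) in High against Control.

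Among 8 relatives of the Ier and ETS genes, Etv1, which belongs to the same ETS subfamily as Etv5, passed in both comparisons with Low. It was 40.6 ± 4.81 in Low (SD, n = 8), 30.2 ± 3.66 in Control and 29.1 ± 6.81 in High, log2 differences of 0.41 (SE 0.12, limma adjusted p = 0.038) and 0.49 (SE 0.12, limma adjusted p = 0.0071), with 8 of 8 Low rats above the median of either group. The difference of Etv5 itself was 0.29 and 0.40 in these comparisons. Etv4, the remaining member of that subfamily, had -0.13 (SE 0.11) in Low against Control and 0.05 (SE 0.11) in Low against High. Ier3 had -0.16 (SE 0.16), Ier5l 0.13 (SE 0.12), Srf 0.18 (SE 0.08) and Elk4 -0.71 (SE 0.31) in Low against Control, and none of these passed.

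In the cascade itself, from Grb2 to the kinases below ERK, 27 of 27 genes were tested and 1 passed in any comparison by limma, in Low against High. Grb2, the adaptor that links receptors to Ras activation, was 186 ± 18.2 in Low and 161 ± 11.2 in High (SD, n = 8), a difference of 0.21 (SE 0.07, limma adjusted p = 0.043), with 8 of 8 Low rats above the High median. Ksr2 had 0.29 (SE 0.35) and Sos1 0.28 (SE 0.13) in Low against High. Of 11 ligands and receptors tested, 0 passed in any of the 3 comparisons by limma or the exact Wilcoxon test, with 0, 1 and 2 at an unadjusted limma p under 0.05 in the order given, and the widest difference was that of Erbb4, at 0.78 (SE 0.31) in Low against High.

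The immediate early transcripts had a median difference of 0.49 in Low against Control and 0.95 in Low against High, beside 0.30 and 0.45 for the 10 genes, and these differences between lists were not tested. Of 13 tested, Junb and Egr4 passed in Low against Control, with differences of 0.71 (SE 0.19, limma adjusted p = 0.027) and 0.56 (SE 0.16, limma adjusted p = 0.030), and 8 of 8 Low rats above the Control median for both. In Low against High 8 of 13 passed, namely Npas4, Arc, Egr2, Junb, Fos, Nr4a1, Egr1 and Egr4. Npas4, an activity-dependent transcription factor of neurons, was 28.6 ± 10.3 in Low and 8.78 ± 3.92 in High (SD, n = 8), a difference of 1.66 (SE 0.29, limma adjusted p = 0.00029). Arc, a synaptic regulator, was 171 ± 67.2 in Low and 58.2 ± 37.0 in High, a difference of 1.64 (SE 0.31, limma adjusted p = 0.00093). For both, 8 of 8 Low rats were above the High median. In High against Control all 13 had negative differences with a median of -0.32, and 0 passed by limma or the exact Wilcoxon test, with 5 at an unadjusted limma p under 0.05.

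**Figure D5:**
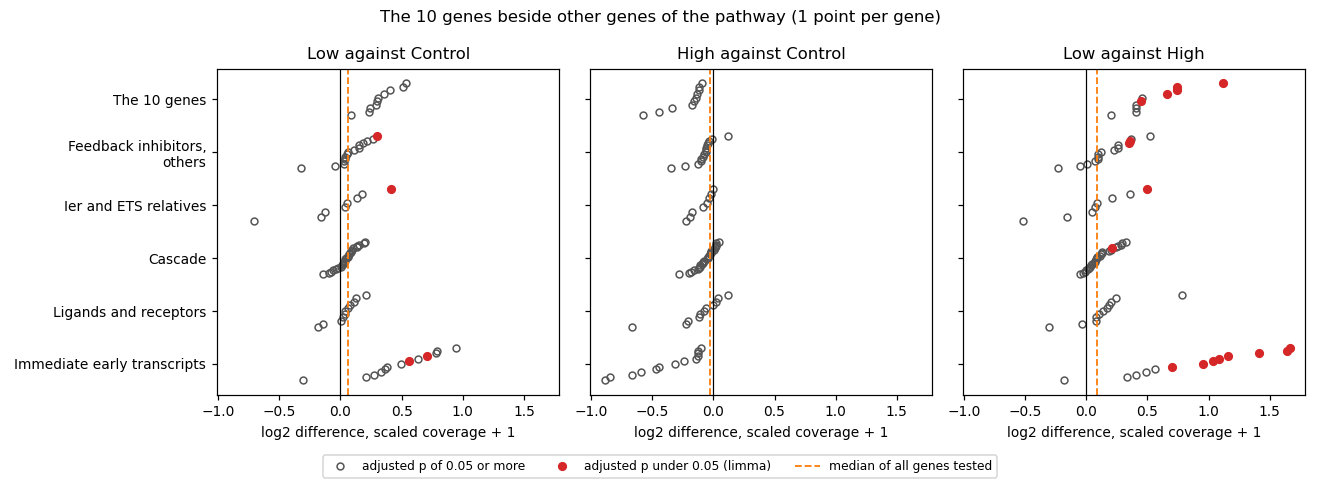
Log2 differences (scaled coverage + 1) of the 10 genes and of 5 lists of other pathway genes in the 3 comparisons, 1 point per gene, filled where the limma adjusted p was under 0.05, with a dashed line at the median of all genes tested. The 27 cascade genes sit around the dashed line, and the immediate early transcripts reach 1.66 in Low against High.

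These calls outside the 10 genes depended on the same libraries. With libraries 56 to 62 as a covariate 0 of 74 genes passed in Low against Control and 8 in Low against High (Dusp3, Dusp7, Junb, Egr1, Egr2, Arc, Npas4 and Nr4a1). Without those libraries the counts were 0 and 5, and without High 65 to 67 they were 4 and 5, the latter being Junb, Egr2, Egr4, Arc and Npas4. Leaving out Control 49 and Low 57 gave 3 and 30, with 3 in High against Control (Nf1, Ksr2 and Erbb4), where 2.49% of all genes then passed.

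In the Control and High tables the 10 genes were also covered by loci that StringTie assembled from the reads. A locus on the same strand overlapped each of the 10 genes in all 16 of these tables. For Ier5 its coverage was within 1% of the gene's in 16 of 16 tables, for Dusp5 and Spry4 in 12 and for Spred1 in 11, while for Spry2 this held in 1 table, the median locus having 0.67 times the gene's coverage. For Dusp1 the median was 0.81 times. Opposite-strand loci overlapped Dusp4 in all 16 tables, and their highest coverage at any of the 10 genes, 112 at Spred1, was in Control 56, where the coverage of Spred1 as deposited was 107. Whether the coverage of a gene was computed in the same way with and without such loci was not tested.

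By the positions in the tables, Dusp1 lies on chromosome 10 (16970626 to 16973418), Dusp6 on chromosome 7 (41475163 to 41479392), Dusp5 on chromosome 1 (274245184 to 274258595), Ier2 on chromosome 19 (25774143 to 25775659) and Ier5 on chromosome 13 (72742210 to 72744303). Dusp4 lies on chromosome 16 (61078175 to 61091169), Spry2 on chromosome 15 (90172975 to 90175802), Spry4 on chromosome 18 (32594958 to 32609864), Spred1 on chromosome 3 (108795235 to 108857556) and Etv5 on chromosome 11 (82194657 to 82252139). The labels name mRatBN7.2, but the position of Dusp5 lies beyond the end of chromosome 1 in that assembly and also beyond the last RefSeq gene of chromosome 1 in GRCr8, which ends at 270492571. The build of these positions is therefore not settled, and they were not compared with the promoter windows.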

How the data were processed

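RNA-Seq libraries (TruSeq Stranded mRNA, poly(A)) of 24 rats were grouped by the concentration in the sample labels. The submitters' processing notes name FastQC, Trimmomatic, TopHat2 and StringTie, and give no versions for them. The authors deposited 1 StringTie gene table per rat. The deposited coverage is a signal that StringTie computed as the average number of reads over each base of a gene, without any scaling for library size. StringTie's FPKM, also deposited, is scaled for gene length and library size. The deposited TPM column is treated as a score, since it sums to 1000000 only in Low tables. Coverage of the reference genes was summed per identifier, taken as a share of the library's sum and expressed per 1000000. Genes averaging 1 or more were kept, and limma 3.58.1 (trend, robust) in R 4.3.3 was run on log2(value + 1) with all 24 rats, two-sided, with p-values adjusted by Benjamini-Hochberg over all 15644 genes and a threshold of 0.05. The fit and the exact Wilcoxon test were tested on simulated data.

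The members, the pathway and marker lists and the tests were chosen with earlier results of these data known. Genes named are the members, in each list and comparison up to 4 with the largest difference and up to 6 past the threshold, and for each member the 3 genes outside the members with the highest correlation. Alternatives were a pseudocount of 0.1, no filter or a minimum mean of 5, median-of-ratios or no scaling, a sum without mitochondrial genes, the FPKM and TPM columns, only the groups compared, exact Wilcoxon tests, libraries 56 to 62 as a covariate or left out, and each rat of the groups compared left out. Leaving out libraries 49 and 57, or 65 to 67, was chosen after seeing the data. Promoter sequences are from RefSeq (GRCr8). Values of some listed genes are not reported here, while counts, medians and sums over their lists include them. Scripts ran in Python 3.11.15 with pandas 2.3.3, numpy 2.4.6, matplotlib 3.10.9 and scipy 1.17.1.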

Additional observations from a re-analysis of the deposited data

Results flagged for a closer look

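Single rats far from the other 7 of their group, by Dixon's criterion for 8 values, were found in 2 of 30 sets of member levels and in 7 of 33 sets of marker sums. Of the 63 sets tested, 3.15 would be found by chance. Dusp4 was 7.48 in Low 57, where the other Low rats had 11.7 to 15.0. Spred1 was 21.3 in Control 49, where the others had 52.8 to 68.8. In both rats the sum of oligodendrocyte precursor markers was also low, at 31.6 in Control 49 against 60.7 to 85.5 in the others, and at 33.5 in Low 57 against 55.4 to 72.7. The endothelium sum of Low 57 was 18.2 against 24.6 to 29.0. The choroid plexus sum was 69.9 in Control 49 (others 1.49 to 23.4), 12.9 in Low 63 (others 2.66 to 6.52) and 25.6 in High 67 (others 0.96 to 11.1). The blood sum of Control 56 was 350.1 against 151 to 240.1 in the others. Within groups, over the 24 rats, Dusp4 went with the oligodendrocyte precursor sum (r = 0.75, rho = 0.42) and Spred1 with the endothelium sum (r = 0.79, rho = 0.47). Without the 2 rats farthest from the median of the marker sum, r was 0.24 and 0.37, so both relations rested largely on those rats. Without Control 49 and Low 57 the Low against High difference was 0.50 for Dusp4 and 0.55 for Spred1.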

How the results depend on the processing

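For Low against High, 5 of the 10 genes passed. The count was 10 with the FPKM column, 3 with median-of-ratios scaling, no filter or only the groups compared, 1 with the exact Wilcoxon test (Dusp6), and 0 with unscaled coverage, with a covariate for libraries 56 to 62, without those libraries or without libraries 65 to 67. It was 2 to 6 when each of the 16 rats of the groups compared was left out in turn, and rats of the group outside a comparison were not left out. For Low against Control it was 0, against 10 with the FPKM column and 2 with the TPM column, and it stayed at 0 with each of their rats left out. For High against Control it was 0 under all 14 alternatives and with each of their rats left out.

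Of the 74 other pathway genes, 4 passed in Low against Control. The count was 66 with the FPKM column, 24 with the TPM column, 8 with a sum without mitochondrial genes, 2 with median-of-ratios scaling, 1 with the exact Wilcoxon test (Etv1), and 0 with unscaled coverage, with a covariate for libraries 56 to 62 or without them. It ranged from 0 to 4 over rats left out, with 0 without Control 50, 51 or 55 or Low 59 or 62, 1 without Control 49, and 2 without Control 53 or Low 58, 60 or 64. In Low against High 12 passed, against 67 (FPKM), 28 (TPM), 30 without libraries 49 and 57, 7 without scaling, and 5 without libraries 56 to 62 or 65 to 67. It ranged from 11 to 19 over rats left out, the highest without Low 57. In High against Control 0 passed, against 3 without libraries 49 and 57, and 0 with each of their rats left out.

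With the FPKM column the median of all genes in Low against Control was 0.53 instead of 0.06, and 12393 of 13816 genes passed, so each gene's FPKM difference is relative to that shift. In Low against High the median was -0.11 without scaling, instead of 0.09. Over the alternatives other than leaving out 1 rat, the sign of the members' differences held for 110 of 110 values in Low against Control, 101 of 110 in High against Control and 109 of 110 in Low against High. With 1 rat left out, the sign turned once, for Ier5 in High against Control without High 67 (0.01). The cause of these shifts was not tested. No paired analysis was possible because the replicate numbers of the 3 groups do not overlap. Depth in reads is unknown, so no limit from counting error can be given.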

Other observations

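The 10 genes differed in how much they varied between rats of 1 group. The SD of log2(scaled coverage + 1) within groups was 0.65 for Dusp1, at the 94.7th percentile of all genes tested, 0.49 for Ier2 and 0.44 for Ier5. It was 0.15 for Spry2, at the 20.3rd percentile, beside a median of 0.22 over all genes tested. The coefficient of variation of Dusp1 was 65.3% in High, 34.2% in Control and 26.5% in Low, and that of Ier2 was 50.2%, 29.2% and 26.2%. The difference in spread between groups was not tested.

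All 10 genes correlated negatively, within groups, with the share of coverage on mitochondrial genes, from -0.14 for Dusp4 to -0.59 for Spry2 (rho = -0.51, and -0.40 without the 2 farthest rats). The scaling sum includes the mitochondrial genes, so a larger share lowers the scaled coverage of other genes by construction. Nothing particular to the 10 genes is read from these signs. Against the sequenced bases derived from coverage and FPKM the correlations lay between -0.21 and 0.14.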
